A study of Drosophila melanogaster with 8 samples.

Results

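Salivary glands were set against heads of Drosophila melanogaster, strain Oregon R, in 4 of the 8 libraries of a study of quick-to-court (qtc), a gene known for its part in male courtship. The members were chosen by tissue: the salivary gland library of females and that of males, against the head library of females and that of males. Each library holds long-read cDNA made from total RNA and enriched for qtc transcripts by amplifying their 5′ and 3′ ends with gene-specific primers. All other genes were counted in these same amplified libraries, so levels and folds describe the libraries. The labels state rearing at 25 °C with 12 h of light per day and collection of flies 5 to 7 days after hatching, and they describe how heads were isolated. How the salivary glands were isolated, and from animals of which stage, the labels do not say. A difference of stage between glands and heads therefore cannot be told apart from one of tissue.

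No allele, transgene or drug treatment is named for any of the 4 groups, and each group is 1 library. There are no repeat libraries, so p-values measure how far the tissue difference varied between the sexes, with each gene's spread moderated across genes. They do not measure the spread between animals. The libraries held 152222 estimated counts in female and 133022 in male salivary glands, against 133718 in female and 135489 in male heads. Genes above 0 numbered 3674 and 3833 in the salivary gland libraries of females and males, against 5004 and 5061 in the head libraries. Genes named as rRNA took 7.89% and 7.83% of the counts of salivary glands of females and males, against 8.19% and 12.54% of those of heads. At this depth 3 counts, the limit that a count of 0 allows, correspond to 19.7 to 22.6 counts per 1000000.

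Salivary glands of Drosophila are a pair of secretory tubes. In the late third-instar larva they make the glue that fixes the pupal case to its support. The glue genes are switched on by the steroid ecdysone, and their mucin-like products are glycosylated and packed into granules by the secretory pathway. Heads are a mixture of brain, eyes, muscle, fat body, glia and cuticle. Their RNA carries the light-sensing cascade of photoreceptors, in which rhodopsins activate a G protein and phospholipase C and open the TRP channels, and arrestins end the response. In such bulk samples, fewer cells of a type and less RNA per cell cannot be told apart.

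The labelled tissues were checked against their defining markers. The 10 salivary gland markers summed to 2.39% of the counts in female glands (Wilson interval 2.32% to 2.47%) and 1.99% in male glands (1.92% to 2.07%). They summed to 0.0146% in female heads (0.0091% to 0.0222%) and 0.0103% in male heads (0.00616% to 0.0173%). The number of these markers at 0 was 1 in female glands and 0 in male glands, against 3 in female heads and 6 in male heads. The 9 photoreceptor markers summed to 0.00866% in female and 0.00649% in male glands, against 8.33% in female and 8.86% in male heads. Markers of another tissue were abundant in the glands: the 7 fat body markers, among them the larval serum gene Lsp2, summed to 17.8% in females (17.6% to 18%) and 17.3% in males (17.1% to 17.5%). In heads the fat body markers summed to 0.0957% in females and 0.131% in males. None of the 7 was at 0 in either gland library, and 4 were at 0 in each head library.

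The gland and head libraries differed over much of what was measured. Of 1169 genes with 10 or more counts in at least 2 of the 4 libraries, 562 passed the test, which is 48.1% of those tested (edgeR's quasi-likelihood test with sex as a term, adjusted p under 0.05). Of these, 235 genes (20.1% of those tested) were higher and 327 (28.0%) lower in salivary glands. Every one of the 562 had the same direction in females as in males. The test favours such genes, because a difference between the sexes adds to the spread it uses, so this agreement is no separate result. Changes were large: 135 genes were higher and 236 lower by 8-fold or more, and 41 of the higher genes had 0 counts in both head libraries while 97 of the lower genes had 0 in both gland libraries. The median log2 fold change of all genes tested was -0.15. Scaling by library totals moved that median by -0.17 and gave 214 higher and 354 lower genes. Counts scaled for library size did not overlap between the tissues in 924 genes, 79.0% of those tested. With so few libraries a tissue, such separation is also frequent without a tissue difference. The filter favours it too, by keeping genes counted in a single tissue. This share is therefore a description and not a separate result.

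These counts depend on the test and on the libraries fitted. A fit of 3 libraries cannot hold terms for both sex and tissue, so each fit without a library, here and in what follows, has no sex term, and the tissue left with 1 library is assumed to vary like the other. Without the sex term the 4 libraries gave 274 higher and 369 lower genes. Set against those, 177 genes were higher and 204 lower without the male head library, and 178 were higher and 265 lower without the female head library. DESeq2 called 79 higher and 100 lower, and all 179 were among the 562; it gave no adjusted p for 114 genes. Only 415 genes had 10 or more counts in all 4 libraries, against 682 in both gland libraries and 852 in both head libraries. A gene that entered the test through a single tissue was more likely to differ, so the counts for gene lists that follow are descriptions. The background for them is the 20.1% of genes called higher and the 28.0% called lower.

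The glue genes were high in salivary glands and at or near 0 in heads. Of 13 annotated members 12 were tested, and all 12 tested were higher in salivary glands. Their median log2 fold change was 8.58, against -0.15 for all genes, and 10.48 without the female head library. Together the list took 2.89% of the counts in female glands (2.8% to 2.97%) and 2.57% in male glands (2.48% to 2.65%). In heads it took 0.00804% in females (0.00459% to 0.0147%) and 0.00289% in males (0.00115% to 0.00759%), which is 11 and 4 counts.

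Among the glue genes, Sgs7 and Sgs5 had the highest level per transcript length. The order by counts was different: Eig71Ee, described below, had more counts than Sgs7 in both gland libraries. Sgs7, a small secreted glue protein, stood at 25800 TPM in female and 21500 TPM in male glands, against 201 and 0 TPM in female and male heads. Its counts were 397 in female and 283 in male glands, against 2 in female and 0 in male heads, a 362-fold higher level (99.7 to 2990, exact binomial interval of the counts). Sgs5 had 20400 and 18900 TPM in the gland libraries of females and males, against 34.4 and 0 TPM in those of heads. Sgs8, the neighbour of Sgs7, had 252 counts in female and 201 in male glands, against 1 in female and 2 in male heads. Its fitted log2 fold change was 7.20 ± 0.754 (SE; edgeR adjusted p = 3.52e-05). In none of these genes did a gland library come near a head library.

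Sgs1, which encodes a large mucin of the glue, was the glue gene that differed most between the gland libraries. It had 282 counts in female and 48 in male glands, against 0 in each head library, at least 58.5-fold higher against 3 counts in each head library. Sgs3 had 267 counts in female and 124 in male glands, against 1 in female and 0 in male heads. Sgs4 was more even, with 228 counts in female and 184 in male glands, against 0 in both head libraries (at least 73.0-fold higher). Sgs5bis, a paralog of Sgs5, had 37 and 68 counts in female and male glands, against 0 in both head libraries. Pig1, known as pre-intermoult gene 1, had the fewest counts of the 12, 21 counts in female and 20 in male glands, against 0 in female and 2 in male heads. It was also the member that DESeq2 did not call.

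Eig71Ee, an ecdysone-induced gene of the larval gland, had 474 counts in female and 421 in male glands, against 1 in female and 0 in male heads. The 3 "new glue" genes were in the same range. The count of ng2 was 330 in female and 495 in male glands, against 1 in female and 0 in male heads, and its adjusted p was 1.97e-05 (edgeR). The genes ng1 and ng3 had 212 and 188 counts in female glands and 78 and 138 in male glands, against 1 count each in female and 0 in male heads.

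**Figure D1:**
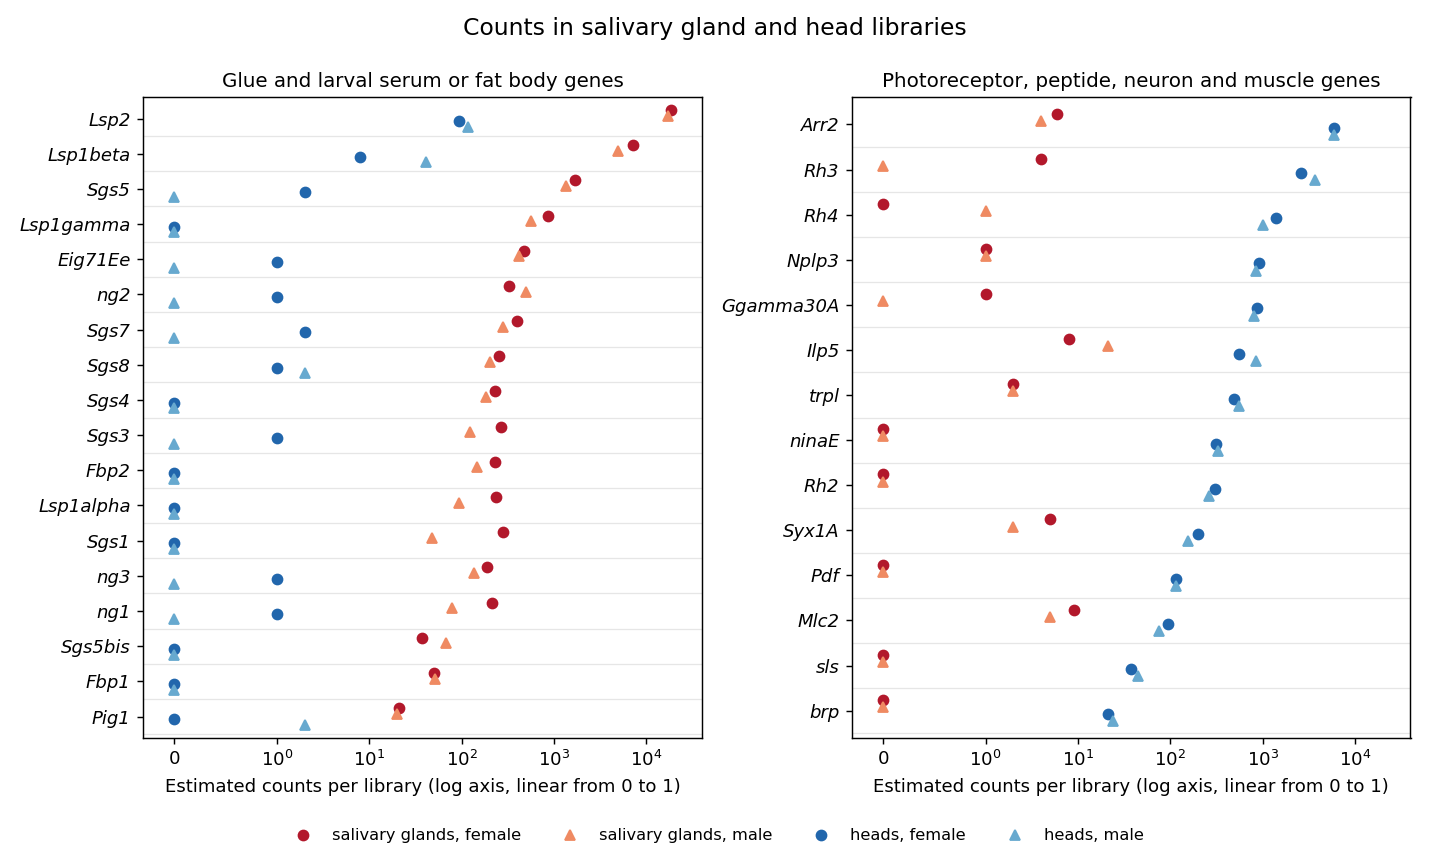
Estimated counts per library (horizontal log axis, linear from 0 to 1) for glue and larval serum or fat body genes on the left and for photoreceptor, neuropeptide, neuron and muscle genes on the right; red marks are salivary glands and blue marks heads, circles females and triangles males. On the left every gland library lies above every head library, from Pig1 (21 and 20 counts in glands, against 0 and 2 in heads) to Lsp2 (18587 and 17135 against 95 and 117), and on the right the order is turned round.

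Several of these genes are neighbours in the genome (BDGP6). On chromosome X, 6 genes called higher lie within 3236130 to 3251040: CG14265, ng2, ng3, ng1, Pig1 and Sgs4. CG14265, which has no given name, had 1007 counts in female and 641 in male glands, against 0 in female and 2 in male heads, and its 15200 and 11300 TPM in glands of females and males were above those of its 5 named neighbours. All 6 overlap another annotated gene, and since no strand is stated, their reads cannot be told apart from those of that gene. On chromosome 3L, Sgs8, Sgs7 and Sgs3 lie between 11508967 and 11513402. On 3R, Sgs5bis, Sgs5 and CG7606 lie between 17594386 and 17598453. Over all called genes there were 8 runs of 3 or more higher genes and 1 run of lower genes. In a run each gene starts no more than 10 kb past the end of those before it, so a whole run can be longer. How many runs position alone would give was not tested.

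The factors that control the gland were near the detection limit. Of 11 regulators 4 were tested. The gene sage, a helix-loop-helix factor of the salivary gland, had 13 counts in female and 17 in male glands, against 1 in each head library (16-fold higher, 4.05 to 138; edgeR adjusted p = 0.0161). Its partner forkhead (fkh) had 21 and 11 counts in female and male glands, against 11 and 9 in female and male heads, and its edgeR adjusted p was 0.404. Xbp1, a factor of the secretory stress response, had 16 and 26 counts in female and male glands, against 6 and 10 in heads (edgeR adjusted p = 0.0934, and 0.0204 without the female gland library). The homeobox gene hth was lower, with 0 counts in both gland libraries, against 22 in female and 16 in male heads. DESeq2 did not call hth and gave no adjusted p for sage.

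The ecdysone response list left little to test: 2 of its 30 members entered the fit and neither was called. MsrA had 10 and 14 counts in female and male glands, against 3 and 15 in female and male heads. The nuclear receptor gene Hr39 had 4 and 17 counts in female and male glands, against 12 and 7 in female and male heads. Their levels overlapped between tissues. Of the 15 genes of mucin-type O-glycosylation 1 was tested. Pgant1, a GalNAc transferase that adds the starting sugar to mucins, had 534 counts in female and 259 in male glands, against 16 in female and 11 in male heads, a log2 fold change of 4.89 ± 0.563 (SE; edgeR adjusted p = 6.03e-05).

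A large block of the counts in salivary glands came from larval serum and fat body protein genes. The larval serum proteins among them are hexamerins, known as products of the larval fat body and stored in the hemolymph for metamorphosis. The list took 18.1% of the counts in female glands (17.9% to 18.3%) and 17.5% in male glands (17.3% to 17.7%). In heads it took 0.526% in females (0.489% to 0.567%) and 0.548% in males (0.51% to 0.589%). Of its 12 tested members 8 were higher, 2 lower and 2 not called, with a median log2 fold change of 5.01. DESeq2 called 6 of them higher.

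Lsp2, the gene of larval serum protein 2, had 18587 counts in female and 17135 in male glands, against 95 in female and 117 in male heads. No other gene had as many counts in either gland library, and its log2 fold change was 7.49 ± 0.703 (SE; edgeR adjusted p = 2.08e-05). Lsp1beta had 7129 and 4974 counts in female and male glands, against 8 and 41 in female and male heads. Lsp1gamma had 874 and 563 counts in female and male glands, against 0 in each head library, at least 255-fold higher. Lsp1alpha, the remaining subunit of that protein, had 238 and 94 counts in glands of females and males and 0 in each head library.

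The receptor of these serum proteins, Fbp1, had 50 counts in female and 52 in male glands, and Fbp2 had 230 and 148, against 0 in each head library for both genes. All 6 genes had counts well apart between tissues. Other fat body genes were mixed. Lsd-1, a perilipin of lipid droplets, was higher, with 35 counts in female and 26 in male glands, against 4 in female and 7 in male heads. It lost its call without the female head library and with DESeq2. The gene fon, of hemolymph clotting, was also higher, with 239 and 227 counts in female and male glands, against 74 and 31 in female and male heads, and lost its call with DESeq2 and in a fit of all 6 somatic libraries, which adds eyes. FASN1, the fatty acid synthase, had 38 counts in female and 16 in male glands, against 392 in female and 366 in male heads (log2 fold change -3.82 ± 0.556, SE; edgeR adjusted p = 0.000254). Adh, alcohol dehydrogenase, was also lower, with 110 and 52.1 TPM in female and male glands, against 574 and 752 TPM in female and male heads. Its call was lost with DESeq2 and with the 6 somatic libraries.

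The lipoprotein gene apolpp had 23 and 6 counts in female and male glands, against 25 and 19 in female and male heads. The lipase gene bmm had 11 and 25 counts in female and male glands, against 14 and 45 in heads. Neither was called. With the fat body genes left out of the fit, 235 genes were higher and 338 lower in salivary glands. Of those 235, 227 were among the genes called higher with all genes and 8 had not been called. Whether fat body tissue was present in the gland samples was not tested.

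**Figure D2:**
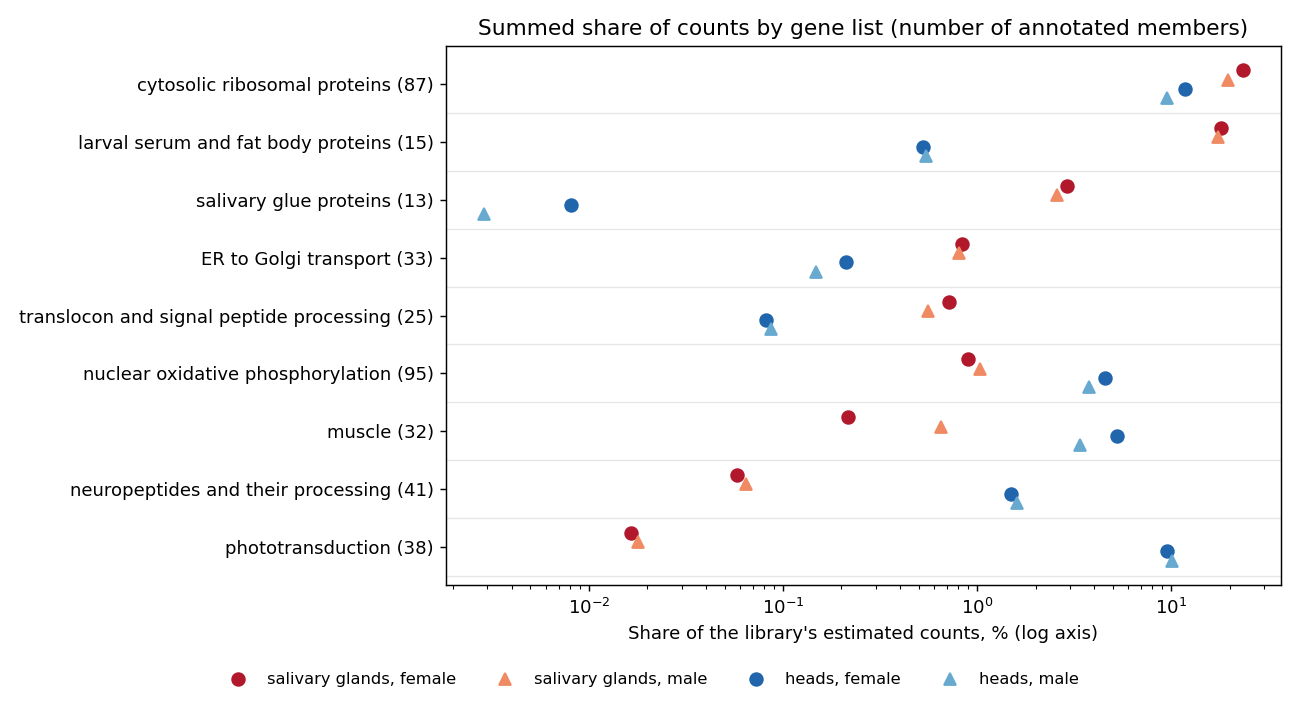
Summed share of each library's estimated counts (horizontal log axis, percent) for 9 gene lists, with the number of annotated members in brackets; red marks are salivary glands, blue marks heads, circles females and triangles males. Larval serum and fat body proteins took 18.1% and 17.5% in glands of females and males, against 0.526% and 0.548% in heads, while phototransduction took 0.0165% and 0.0178% in glands, against 9.51% and 10.1% in heads.

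Genes of the secretory pathway were higher in salivary glands at each step from entry into the endoplasmic reticulum (ER) to the Golgi. Of 10 tested genes of the translocon and signal peptide processing, 8 were higher, none was lower and the median log2 fold change was 3.30. Of 17 tested genes of ER to Golgi transport, 12 were higher, none lower, with a median of 2.72, which was 1.98 without the male head library. Of 7 tested genes of ER folding, 5 were higher, none lower, with a median of 1.97. Every tested gene of these lists had a positive fold change. The calls rest on the test: DESeq2 called 1, 2 and 0 genes of these lists. Without the male head library, edgeR called 7 genes of ER to Golgi transport and 3 of ER folding, and without the female head library 3 of ER folding.

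Ost48, a subunit of the oligosaccharyltransferase that attaches N-glycans, had 652 counts in female and 434 in male glands, against 59 in female and 48 in male heads. Its log2 fold change was 3.41 ± 0.523 (SE; edgeR adjusted p = 0.000382), and it was the gene of that list that DESeq2 also called. Stt3B, a catalytic subunit of the same enzyme, had 106 and 57 counts in female and male glands, against 9 in each head library. Signal recognition and cleavage showed the same direction. Srp72, of the signal recognition particle, had 75 and 72 counts in female and male glands, against 12 and 16 in heads, and lost its call without the female head library and with DESeq2. SrpRalpha, its receptor, had 27 and 13 counts in female and male glands, against 0 and 1 in female and male heads. The gland libraries lay above the head libraries in each.

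In the ER lumen, CaBP1, a protein disulfide isomerase, had 173 counts in female and 101 in male glands, against 6 in female and 27 in male heads. The chaperone gene Hsc70-3, known as BiP, had 112 and 73 counts in female and male glands, against 26 and 23 in heads (log2 fold change 1.97 ± 0.548, SE; edgeR adjusted p = 0.0116). Hsc70-3 lost its call without either head library. For export, KdelR, the receptor that returns ER residents from the Golgi, had 132 counts in female and 93 in male glands, against 8 in female and 10 in male heads (log2 fold change 3.69 ± 0.615, SE; edgeR adjusted p = 0.000663). Cargo receptors of the p24 family were higher as well: loj had 191 and 212 counts in female and male glands, against 26 and 15 in heads, and eca had 340 and 258, against 83 and 70. Rab6, a GTPase of the Golgi, had 89 and 82 counts in female and male glands, against 10 and 11 in heads.

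Spp, signal peptide peptidase, stood outside these lists and was picked after its values were seen. It had 3376 counts in female and 1422 in male glands, against 121 in female and 156 in male heads.

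Cytosolic ribosomal protein genes took 23.3% and 19.5% of the counts in glands of females and males, against 11.8% and 9.48% in heads. Most of that came from a pair of genes. RpL36A had 12952 counts in female and 8960 in male glands, against 5963 in female and 4000 in male heads, and missed the threshold (log2 fold change 1.23 ± 0.533, SE; edgeR adjusted p = 0.0771). It passed in 5 alternatives: with the 6 somatic libraries (adjusted p = 0.0484), with limma-voom (0.0349), without the sex term (0.029), without rRNA genes, mitochondrial genes and qtc (0.0488), and without the male gland library (0.0315). RpS3 had 12091 and 8312 counts in female and male glands, against 3369 and 3442 in female and male heads, a log2 fold change of 1.65 ± 0.547 (edgeR adjusted p = 0.0273) that lost its call with DESeq2 and at a minimum of 30 counts. Of the 59 tested ribosomal protein genes 8 were higher, 1 lower and 50 not called, with a median log2 fold change of 0.63. The share called higher was below the 20.1% of all genes. DESeq2 called none of these genes; 3 were higher without the female head library, 4 without the male head library or with library totals and 13 without the male gland library.

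Translation factors had 6 higher, 1 lower and 12 uncalled genes among 19 tested, with a median of 1.00. eIF3c, a subunit of the initiation factor that binds the small ribosomal subunit, had 991 and 869 counts in female and male glands, against 212 and 182 in heads (log2 fold change 2.33 ± 0.566, SE; edgeR adjusted p = 0.00577). The elongation factor gene eEF2 had 903 counts in female and 1157 in male glands, against 288 in female and 434 in male heads. Its call was lost without the female head library, with library totals and with DESeq2. The number of factors called higher was 3 without the female head library, 2 without the male head library, 2 with library totals and 1 with DESeq2. Of 3 tested genes of ribosome biogenesis none was called.

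Secreted proteases of the gut were among the higher genes. All 5 tested digestive enzymes of the 51 annotated were higher, and DESeq2 called 4 of them. Jon65Aiii had 55 counts in female and 46 in male glands, against 0 in both head libraries, and Jon65Aiv had 29 and 28, against 0. The trypsin gene epsilonTry was uneven between the gland libraries, with 48 counts in females and 277 in males, against 1 in each head library. The trypsins gammaTry and deltaTry lie beside it and belong to a family of near-identical copies, between which reads may have been split. The list took 0.132% and 0.372% of the counts in glands of females and males, against 0.0345% and 0.0118% in heads. Outside the comparison it took 1.35% in female eyes, 0.00705% in male eyes, 0.465% in ovaries and 0.164% in testes. The 6 gut markers summed to 0.0409% and 0.0471% in glands of females and males, against 0.0186% and 0.000738% in heads, and their part in the result was not tested.

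Among odorant binding proteins, Obp99b, also the single tested gene of 11 on the adult yolk and head fat body list, had 1168 counts in female and 846 in male glands, against 2 in female and 19 in male heads (log2 fold change 6.96 ± 0.947, SE; edgeR adjusted p = 0.000244). The fold change was 5.75 without the female and 9.01 without the male head library. Obp49a went the other way, with 0 counts in female and 1 in male glands, against 18 in female and 20 in male heads, and DESeq2 did not call it. Of 4 tested cuticle protein genes, which build chitin-bound layers, 1 was higher and 3 lower. Cpr49Ac had 649 counts in female and 537 in male glands, against 1 in each head library, 631-fold higher (174 to 5210). Its paralog Cpr49Ae showed the reverse, with 1 and 2 counts in female and male glands, against 922 and 1139 in female and male heads.

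Heat shock genes did not move as a block: 4 of 7 tested were higher, none was lower, and the list's share was 0.326% and 1.19% in glands of females and males, against 3.21% and 1.29% in heads. The small heat shock genes Hsp27 and Hsp23, which are neighbours on 3L, were the clearest. Hsp27 had 160 counts in female and 91 in male glands, against 3 in female and 2 in male heads (log2 fold change 5.65 ± 0.710, SE; edgeR adjusted p = 9.72e-05). Hsp23 had 61 and 60 counts in female and male glands, against 1 and 2 in heads. The gene l(2)efl, of the same family, had 50 counts in female and 1105 in male glands, against 4174 in female and 1598 in male heads. It missed the threshold (log2 fold change -3.32; edgeR adjusted p = 0.15). It passed, as lower, at edgeR's own filter on low counts (-3.27), at a minimum of 30 counts (-3.46) and without the male gland library (-5.82). Hsp83 and Hsc70-3 lost their calls without either head library and with DESeq2, which left Hsp27 and Hsp23, 2 genes, called higher in the list.

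Detoxification genes were split, with 4 higher, 4 lower and 10 uncalled among 18 tested, and their median of 0.05 was close to that of all genes. The share called higher was near the 20.1% of all genes, and the share called lower was below the 28.0% of all genes. Cyp310a1 had 33 and 51 counts in female and male glands, against 2 and 1 in heads, while Cyp313a1 had 0 in both gland libraries, against 52 in female and 177 in male heads. Without the male head library 2 genes were called higher. In the lysosome and autophagy list 1 of 6 tested genes was higher, the protease gene cathD, and it lost its call without the male head library and with DESeq2. Eye pigment genes had 1 of 3 tested lower, the granule-trafficking gene garnet (g), which lost its call without the female head library, with DESeq2, with the 6 somatic libraries and with no filter on low counts.

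**Figure D3:**
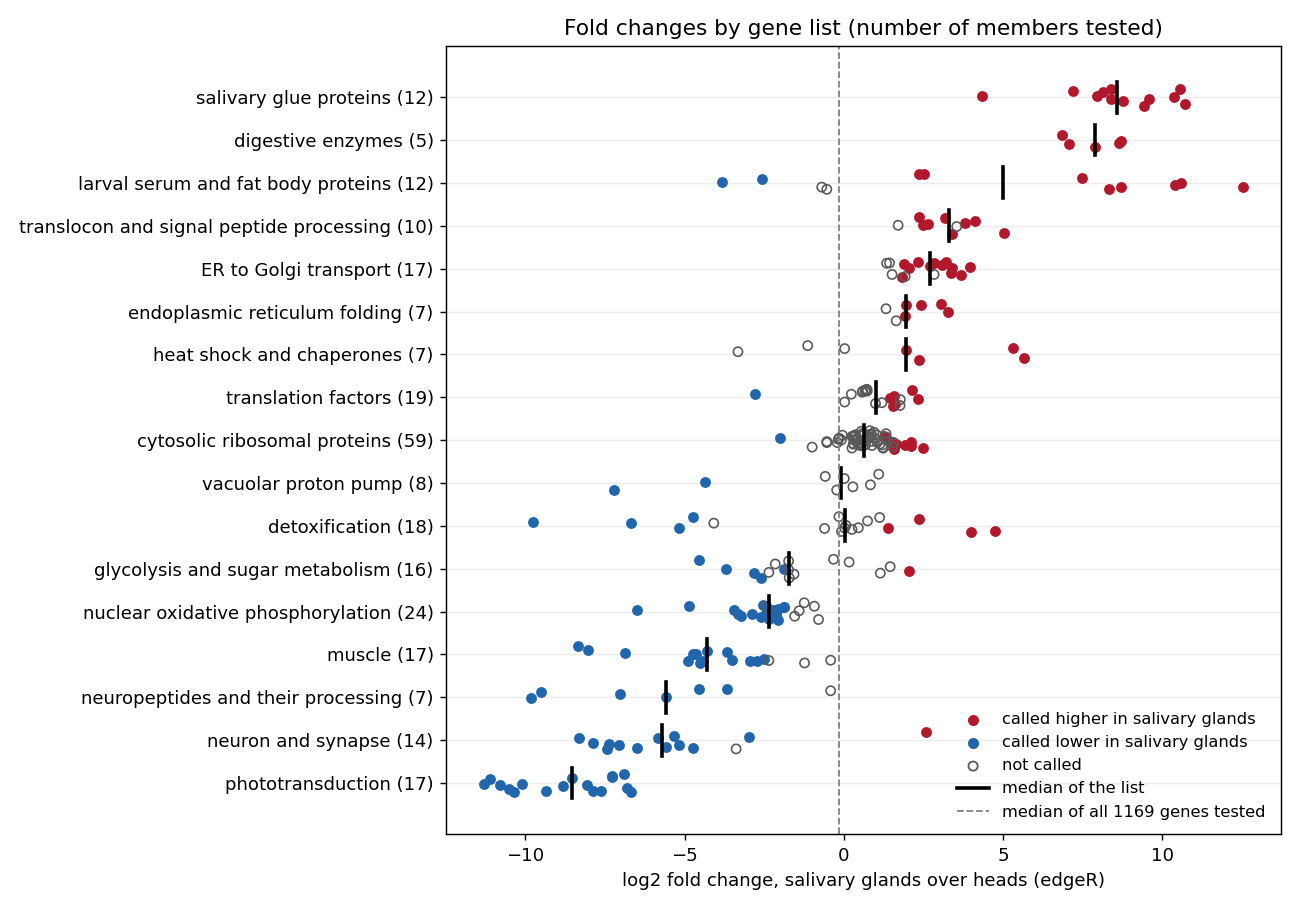
Log2 fold change of salivary glands over heads (horizontal axis) for the tested members of 17 gene lists, with the number tested in brackets; red points were called higher, blue points lower and open points were not called, the black bar is the list's median and the dashed line the median of all 1169 genes (-0.15). The lists run from salivary glue proteins, with a median of 8.58, to phototransduction, with a median of -8.54.

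The light-sensing cascade was at or near 0 in the salivary gland libraries. All 17 tested genes of the phototransduction list were lower in glands, with a median log2 fold change of -8.54. They include retinin and Pdh, which are not steps of the cascade itself. Of 38 members, 27 in female and 30 in male glands were at 0, against 6 in each head library. Arr2, the main arrestin of photoreceptors, had 6 counts in female and 4 in male glands, against 5986 in female and 6003 in male heads, a log2 fold change of -10.12 ± 0.804 (SE; edgeR adjusted p = 1.95e-05). The median was -9.35 without the female gland library and -8.09 without the male head library. DESeq2 called 13 of the list lower.

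The rhodopsins, the light receptors, lay at or near 0 in glands. Rh3 had 4 counts in female and 0 in male glands, against 2599 in female and 3682 in male heads. Rh4 had 0 and 1 counts in female and male glands, against 1393 and 1001 in heads. The gene ninaE, which encodes the rhodopsin of the outer photoreceptors, had 0 counts in both gland libraries, against 317 in female and 328 in male heads, at least 101-fold lower. Rh2, the rhodopsin of the ocelli, had 0 counts in both gland libraries, against 308 in female and 264 in male heads. Rh4 overlaps 3 other annotated genes, and Rh6 was not analysed here.

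Downstream of the receptors the direction was the same. Ggamma30A, the gamma subunit of the visual G protein, had 1 and 0 counts in female and male glands, against 878 and 814 in heads. The channel gene trpl had 2 counts in each gland library, against 489 in female and 558 in male heads (log2 fold change -7.86 ± 0.679, SE; edgeR adjusted p = 1.95e-05). Cpn, a calcium-binding protein of photoreceptors, had 0 counts in both gland libraries, against 271 in female and 431 in male heads. Genes of the rhabdomere and lens, all 3 tested, were lower. Among them the lens protein gene Cpr72Ec had 0 counts in both gland libraries, against 314 in female and 264 in male heads. The lists overlap: retinin is also counted in the phototransduction list and Cpr72Ec among the cuticle proteins.

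Neuropeptide genes, which encode secreted signals of neurons and gland cells, had 6 of 7 tested members lower and none higher, with a median of -5.59. That median was -4.87 without the female and -6.91 without the male gland library. Nplp3 had 1 count in each gland library, against 914 in female and 841 in male heads, 825-fold lower (228 to 6820). Pdf, the peptide of clock neurons, stood at 0 TPM in both gland libraries, against 1580 TPM in female and 1820 TPM in male heads. Ilp5, an insulin-like peptide of the brain, had 8 counts in female and 21 in male glands, against 550 in female and 859 in male heads.

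Of 14 tested neuron and synapse genes 12 were lower, 1 was higher and 1 was not called, and DESeq2 called 6 lower. Syx1A, a syntaxin of the synaptic vesicle fusion machinery, had 5 and 2 counts in female and male glands, against 198 and 157 in heads (log2 fold change -5.57 ± 0.709, SE; edgeR adjusted p = 0.000102). Without the female gland library its log2 fold change was -6.2. The sodium channel gene para had 0 counts in both gland libraries, against 27 in female and 33 in male heads, and the active zone gene brp had 0, against 21 and 24. The exception in direction was Syt1, a synaptotagmin, with 36 and 38 counts in female and male glands, against 3 and 11 in heads. Its call was lost without the female head library and with DESeq2. The 3 tested glial genes were lower: alrm, an astrocyte marker, had 3 and 23 counts in female and male glands, against 92 and 162 in heads, and lost its call without the male head library.

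Muscle genes were lower in glands in 14 of 17 tested members, none was higher, and the median was -4.29. They took 0.215% (0.193% to 0.24%) of the counts in female glands and 0.654% (0.611% to 0.698%) in male glands. In heads they took 5.26% (5.14% to 5.38%) in females and 3.38% (3.28% to 3.48%) in males. Act57B, a muscle actin, accounted for most of the difference between the gland libraries, with 34 counts in females and 441 in males, against 4410 in female and 2590 in male heads. Actin genes resemble each other, and reads may have been split between them. The myosin light chain gene Mlc2 had 9 and 5 counts in female and male glands, against 95 and 75 in heads, and the titin-like gene sls had 0 in both gland libraries, against 38 and 45. The median was -6.04 without the male gland library, -3.29 without the female gland library and -3.37 without the female head library. The number called was 8 without the female head library, 9 without the male head library and 7 with DESeq2.

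Nuclear genes of oxidative phosphorylation were lower in salivary glands as well. Of 24 tested, 18 were lower, none was higher, and all 24 fold changes were negative, with a median of -2.34. They took 0.892% and 1.04% of the counts in glands of females and males, against 4.58% and 3.77% in heads. ATPsynC, the ring subunit of the ATP synthase, had 26 and 29 counts in female and male glands, against 287 and 264 in heads, a log2 fold change of -3.23 ± 0.528 (SE; edgeR adjusted p = 0.000591). UQCR-14, of complex III, had 37 and 32 counts in female and male glands, against 286 and 176 in heads. DESeq2 called 3 of the list. The fit of all 6 somatic libraries called 8 lower, with a median of -1.95.

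Of 6 tested genes encoded by mitochondrial DNA, mt:ATPase6 was lower and 5 were not called, with a median of -0.64, and DESeq2 did not call mt:ATPase6. Glycolysis and sugar metabolism had 5 lower, 1 higher and 10 uncalled genes among 16 tested. The share called lower was near the 28.0% of all genes, and the share called higher was below the 20.1% of all genes. Tpi, triose phosphate isomerase, had 32 and 14 counts in female and male glands, against 150 and 133 in heads (log2 fold change -2.61 ± 0.590, SE; edgeR adjusted p = 0.00405). Ldh, lactate dehydrogenase, had 16 and 58 counts in female and male glands, against 4 and 15 in heads, and its call was lost without either head library or the male gland library, without the sex term and with DESeq2. Without the male head library 2 genes of the list were lower, with library totals 8 were, and DESeq2 called none. Among 8 tested subunits of the vacuolar proton pump 2 were lower, a share near that of all genes, and none higher. The most counted, VhaAC39-1, had 4678 and 6145 counts in female and male glands, against 6340 and 6922 in female and male heads (edgeR adjusted p = 0.759).

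Genes with only a CG or CR number made up 66 of the 235 higher and 81 of the 327 lower genes. Among those higher, CG12715 on chromosome X had 940 counts in female and 411 in male glands, against 0 in both head libraries (at least 240-fold higher). CG34166 on 2L had 2674 and 1606 counts in female and male glands, against 38 and 35 in heads, and it stood at 42100 and 29900 TPM in glands of females and males, against 691 and 821 TPM in heads. CG7567 on 3R had 175 and 354 counts in female and male glands, against 0 and 1 in female and male heads. Each was apart between tissues in both sexes.

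Several lists had too few counts to compare. No hemocyte gene, no antimicrobial peptide gene and no RNA of dosage compensation entered the test. The 7 hemocyte markers summed to 0% in female and 0.00104% in male glands, against 0.0015% in female and 0.00221% in male heads. The 8 eggshell markers summed to 0.0138% in female and 0.0222% in male glands, against 0.0249% in female and 0.0274% in male heads. Of 12 clock genes Pdp1 alone was tested and was lower, with 0 counts in both gland libraries against 11 in female and 21 in male heads, and it lost its call without the male head library. Of 30 genes of DNA replication and the cell cycle, CycB alone was tested and was not called.

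Transcript usage was tested in 193 genes with 450 transcripts, each with 10 or more counts in 2 libraries (edgeR's diffSpliceDGE with sex as a term). None was called (0%), 24 genes (12.4%) had an unadjusted p under 0.05, and the Simes combination of transcript p-values called none. Without the sex term 14 genes were called. Without a library, and so also without the sex term, the number was 1 (female glands), 0 (male glands), 2 (female heads) and 1 (male heads). Transcripts of a gene share exons, so the shares below are the authors' estimates; they describe genes among the 10 of smallest p.

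HisRS, a histidyl-tRNA synthetase, had separate transcripts in the tissues. Transcript RA took 100% of its 40.4 counts in female glands (91.2% to 100%) and 100% of 27 in male glands (87.5% to 100%), against 0% of 38.6 in female heads (0% to 8.97%) and 0% of 14.2 in male heads (0% to 21.5%). RD took the rest. In eIF2Bdelta, a subunit of the exchange factor of translation initiation, RD took 96.2% (84.5% to 98.7%) in female and 100% (91.0% to 100%) in male glands, against 12.0% (3.74% to 37.9%) in female and 31.1% (11.7% to 54.6%) in male heads. The intervals did not overlap between tissues in either gene, and the adjusted p was 0.292 for each (edgeR's diffSpliceDGE).

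Aldh-III, an aldehyde dehydrogenase, had the smallest adjusted p, 0.217 (edgeR's diffSpliceDGE). Its RI took 10.4% (6.74% to 15.3%) in female and 32.8% (27.3% to 38.3%) in male glands, against 75.4% (68.2% to 82.2%) in female and 73.7% (66.7% to 79.3%) in male heads. The gene mrt had the second smallest p, with an adjusted p of 0.292 (edgeR's diffSpliceDGE), and its gland libraries differed from each other. Its RF took 43.9% (37.8% to 50.0%) in female and 100% (98.0% to 100%) in male glands, against 49.4% (43.8% to 55.2%) in female and 85.6% (80.9% to 89.3%) in male heads. RA took 56.1% in female and 0% in male glands, against 0% in both head libraries. RB was at 0% in both gland libraries, against 28.1% in female and 14.4% in male heads. The actin-severing gelsolin gene Gel used RB for 34.0% and 51.5% in glands of females and males, against 0% in both head libraries. In Hsc70-3, the ER chaperone that was higher in glands, RC took 41.7% and 56.2% in glands of females and males, against 0% in both head libraries, which had 25.7 and 22.6 counts of the gene.

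**Figure D4:**
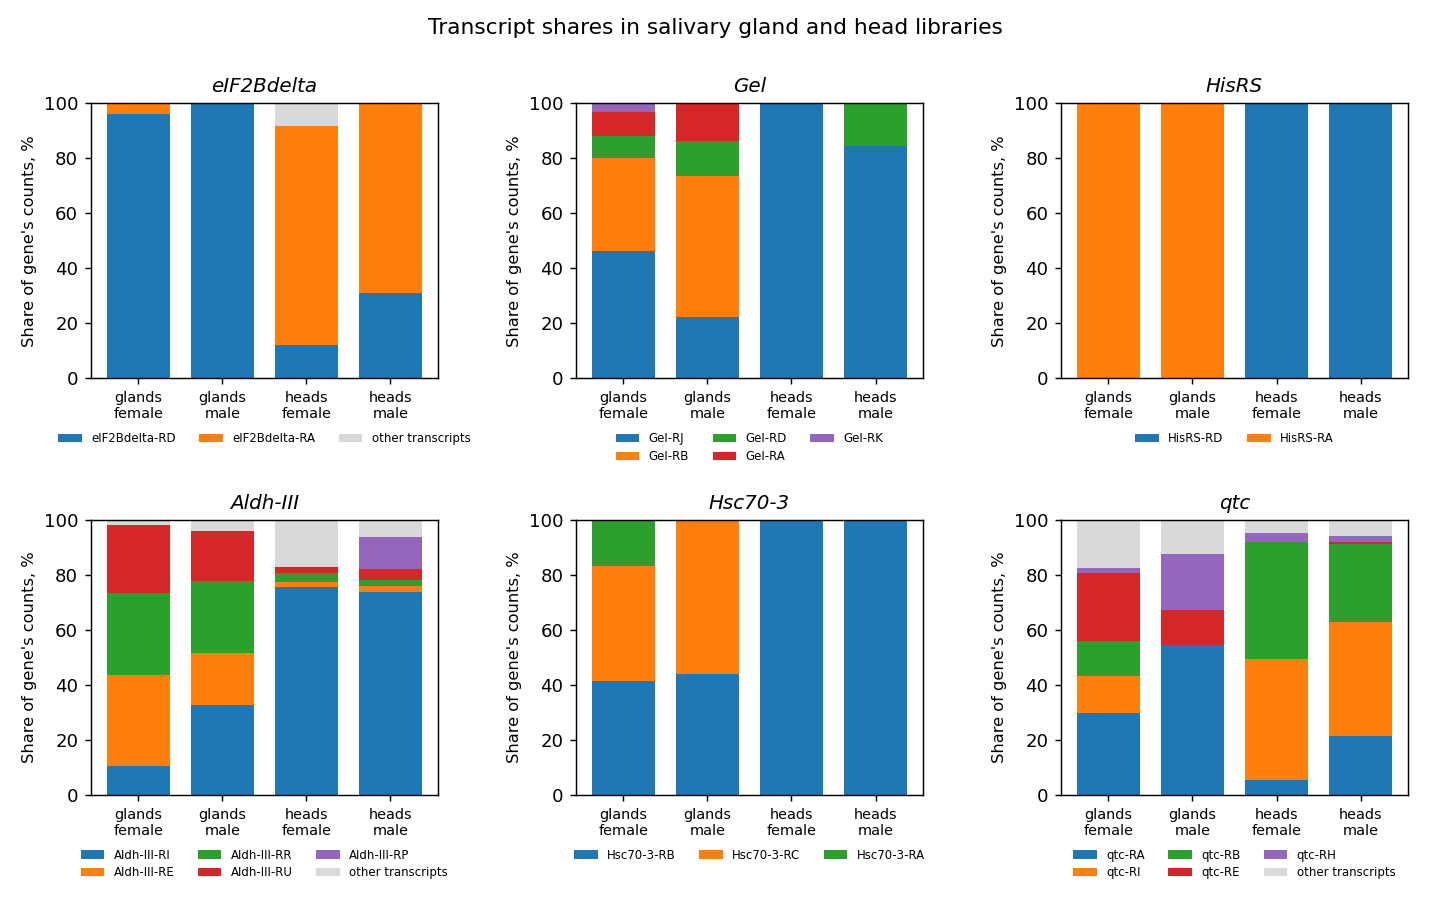
Share of each gene's estimated counts (vertical axis, percent) by transcript in the 4 libraries, with salivary glands on the left and heads on the right of each panel; colours stand for the 5 transcripts of highest share and grey for the others. HisRS used RA at 100% in both gland libraries against 0% in both head libraries, and no gene passed the adjusted threshold.

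At the enriched locus, qtc had 900 counts in female and 564 in male glands, against 1674 in female and 3290 in male heads, a log2 fold change of -1.63 ± 0.612 (SE; edgeR adjusted p = 0.0449) that lost its call without the male head library (-1.07), with DESeq2, with limma-voom, with all 6 somatic libraries and with no filter on low counts (-1.5). Reads at the qtc locus made up 2.225% and 1.743% of mapped reads in female and male glands, against 3.357% and 7.294% in female and male heads. The share of qtc-RA was 24.4 percentage points higher in glands than in heads of females and 33.1 points higher in males. That of qtc-RI differed by -30.5 points in females and -41.6 in males. The adjusted p for the gene's transcript usage was 0.844 (edgeR's diffSpliceDGE).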

How the data were processed

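The 4 libraries were taken by tissue and sex from the labels. The authors deposited an estimated count for each of 31089 transcripts per library, and TPM corrected for length, which served for levels between genes. Whether a correction for length is right for these long reads was not tested. The order of genes by TPM can differ from that by counts. A second deposited table holds whole-number counts of reads per library and at the qtc locus. Per the submitters' processing notes, reads were handled with minimap2, Salmon and edgeR on the build BDGP6; no version or role is stated. Of the IDs, 31048 matched the Ensembl annotation of BDGP6 and 41 did not and were left out. Gene sums (14292 genes) of the estimated counts were rounded to whole numbers.

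Genes with 10 or more counts in 2 libraries entered edgeR 4.0.16 (R 4.3.3; robust quasi-likelihood test after TMM scaling, with terms for sex and tissue), which leaves 1 residual degree of freedom. P-values were adjusted by the Benjamini-Hochberg method at 0.05. Genes at 0 in a tissue have their fold computed against 3 counts in each of its libraries, and those with 1 to 3 counts carry an exact binomial interval. Intervals are at 95%; PCR reads are not independent molecules, so intervals and floors cover counting error only. Scripts were tested on simulated data. Alternatives used DESeq2 1.42.0, limma 3.58.1, other scalings and filters, and fits without a library, which have no sex term. The genes named are drawn from the 12 higher and 12 lower genes of smallest p, the 8 of highest TPM per tissue, up to 6 members of each list, glue, serum and regulator genes with 10 counts, and the 10 of smallest p in usage. Other genes named in the text were chosen after their values were seen. The members and lists were chosen with earlier results of these data known. Counts of overlapping genes and near-identical copies are uncertain.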

Additional observations from a re-analysis of the deposited data

Results flagged for a closer look

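CycB, a mitotic cyclin, had opposite differences in the sexes: the log2 difference of salivary glands minus heads was -2.06 in females and 3.69 in males, with 3 and 22 counts in female and male glands, against 20 and 0 in female and male heads. Non1, a GTPase of ribosome assembly, had differences of 1.64 in females and -0.88 in males. Its counts were 120 and 34 in female and male glands, against 39 and 69 in female and male heads. These pairs lay further apart than counting error, and the difference between the sexes was not tested.

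Male eyes, a library outside the comparison, held more of the gland and fat body genes than either head library did. Salivary gland markers made up 0.05% of the counts of male eyes (Wilson interval 0.0391% to 0.064%) and the glue list 0.0945% (0.079% to 0.113%). Fat body markers made up 1.18% (1.12% to 1.24%) and the larval serum and fat body list 1.47% (1.41% to 1.54%).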

How the results depend on the processing

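The 135 named genes with a call kept their direction in every alternative that gave them a value, which for 87 of them was each alternative run. Of the 135, 70 kept the call wherever they had a value, 54 of them with a value in each alternative, and 93 did so apart from DESeq2, which gave a value for 127 and lost 57. A minimum of 30 counts gave 147 higher and 162 lower genes, DESeq2 79 and 100, and a fit of all 6 somatic libraries 214 lower genes. The fit of 6 libraries adds eyes. Eggshell markers summed to 8.3% in female and 0.0241% in male eyes, against 0.0249% and 0.0274% in female and male heads. What this did to the calls was not tested. Fits that leave out a library have no sex term, so the matching counts of 4 libraries are 274 higher and 369 lower. Leaving out a library in turn gave 177 to 254 higher genes, 204 to 348 lower genes and 0 to 2 genes with a usage call. Without a replicate block, that is without sex as a term, 274 genes were higher, 369 lower and 14 had a usage call. Deviations of the sexes did not go together across genes (correlation -0.082). The qtc-RH difference in males was 18.03 percentage points from estimated counts and 23.49 from deposited TPM.

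Among uncalled genes the sign of the log2 fold change turned in some alternatives. Leaving out a library in turn gave -0.48 to 0.09 for VhaAC39-1, -0.27 to 2.1 for MsrA, -1.2 to 1.03 for Hr39, -1.66 to 0.09 for apolpp, -1.39 to 0.52 for bmm, -0.47 to 1.18 for Non1 and -1.67 to 6.7 for CycB, where the fit without male glands gave -1.67 and that without male heads -0.5. VhaAC39-1 was at 0.16 with 6 libraries, and Hr39 at -0.08 with DESeq2, at -0.09 with library totals and at -0.03 without male heads. The cause was not tested. With 1 library per group and 1 residual degree of freedom, small differences could not be resolved at this depth.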
